A study of Mus musculus with 22 samples.

Results

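Of 8520 heavy-chain sequences in 16 bulk libraries, 679 (7.97%) carried 5 or more mismatched bases between their V segment and the germline V gene to which they were aligned. These 679 sequences are described here beside the 3963 with 1 to 4 mismatches and the 3878 with 0. A mismatch was counted at each aligned position with a base in both sequences, and the 679 were chosen by that count, which is therefore given only as a description. The libraries came from spleens of male C57BL/6 mice labelled as 8 weeks old, which had been immunised with ovalbumin (OVA) in alum with lipopolysaccharide, and from which germinal center B cells that bind OVA had been sorted. All groups shared this immunisation, and there was no unimmunised group. There were 4 groups of 4 libraries, n and p of day 7 after immunisation and n and p of day 13. The meaning of n and p is not given in the labels, which are also silent on whether each library came from a mouse of its own, so p-values measure the spread between libraries, which may be technical. The sequences hold no other transcripts, so the label of germinal center B cell could not be checked against marker genes.

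Germinal centers are structures of activated B cells in lymphoid organs. In them activation-induced deaminase (AID) turns cytosines in rearranged antibody genes into uracils, error-prone repair leaves point mutations, and cells whose mutated receptor binds antigen well receive more help from T cells. A heavy-chain V segment carries framework regions, which hold the fold, and the complementarity-determining loops CDR1 and CDR2, which with CDR3 (the V-D-J junction) contact antigen. Class switching, driven by the same enzyme, exchanges the IgM constant region for IgG, IgA or IgE.

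Among the 679 sequences, 251 had 5 mismatches and 179 had 6, so that 63.3% lay at the lower edge, and 62 had 10 or more. The median was 6, over a median of 294 compared V bases. The highest count was 18, in 3 sequences aligned with gaps that share the same mismatches and are described last, and 15 among the others. Together they held 4491 of the 12264 mismatches in the table (36.6%). The sequences just inside the threshold (251 with 5 mismatches) and just outside it (413 with 4) held 65.3% and 53.0% day 13 sequences, 44.4% and 41.6% class-switched sequences, and replacement shares of 75.4% and 72.7%.

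**Figure D1:**
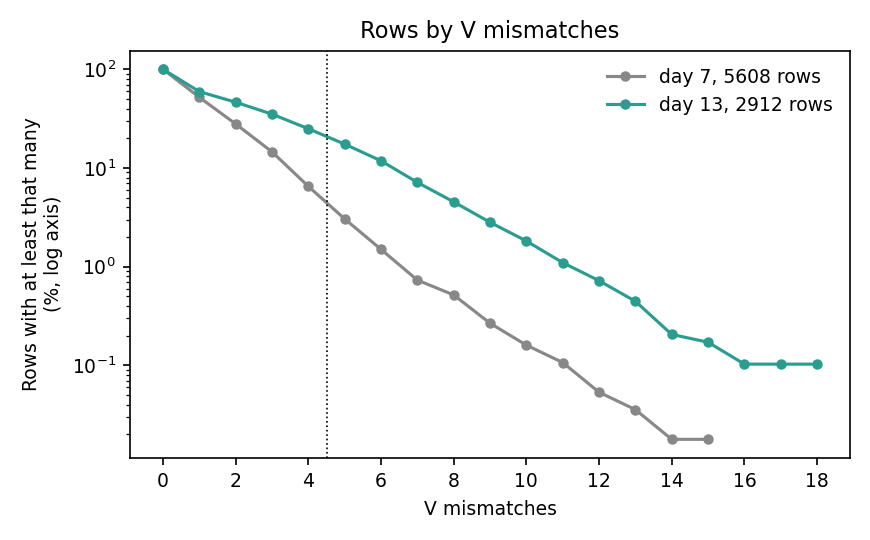
The horizontal axis gives the number of V mismatches and the vertical axis, on a log scale, the percentage of sequences with at least that many, at day 7 (grey) and day 13 (green). Right of the dotted line, which marks the threshold, are 3.05% of day 7 and 17.4% of day 13 sequences.

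Among in-frame sequences aligned without gaps, 3 were tied for the most mismatches, with 15. The first of them by library name is printed with its germline to give the look of such a V segment. It came from library 4 of day 13, n, used IGHV1-80 with IGHJ2, carried an IgM constant region, and had 15 mismatches over bases 1 to 294, of which 4 lay in CDR1 or CDR2 and 12 changed the encoded amino acid. Capitals mark the mismatched bases in both lines, and positions are counted from 1 at the first germline base.
IGHV1-80 germline: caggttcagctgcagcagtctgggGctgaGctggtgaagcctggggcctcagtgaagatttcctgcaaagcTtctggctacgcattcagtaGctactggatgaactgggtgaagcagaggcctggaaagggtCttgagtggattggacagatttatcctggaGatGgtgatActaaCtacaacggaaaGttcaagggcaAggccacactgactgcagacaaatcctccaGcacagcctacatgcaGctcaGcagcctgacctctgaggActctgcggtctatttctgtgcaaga
day 13 n 4: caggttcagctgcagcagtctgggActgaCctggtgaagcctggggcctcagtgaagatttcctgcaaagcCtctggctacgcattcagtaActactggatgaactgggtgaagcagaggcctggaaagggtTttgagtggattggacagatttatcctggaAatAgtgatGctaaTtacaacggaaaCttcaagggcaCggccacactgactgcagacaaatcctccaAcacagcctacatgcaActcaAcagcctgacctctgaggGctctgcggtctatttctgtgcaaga
The first mismatch was G25A and the last A269G, with several stretches free of mismatches between them.

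The leading V gene for repeated substitutions was IGHV1-26, in the immunoglobulin heavy-chain locus at chr12:114788372-114788665 (GRCm38.p6, the assembly behind mm10). Bases 145 to 204 around CDR2 are shown with 4 of the heavily mutated sequences, to show the same germline G replaced by different bases. In the germline line capitals mark bases 170 and 176, and in the other lines every mismatch.
IGHV1-26 germline: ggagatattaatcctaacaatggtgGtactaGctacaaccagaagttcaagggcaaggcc
day 13 p 4: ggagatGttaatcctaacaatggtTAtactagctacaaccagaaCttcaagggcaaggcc
day 13 n 1: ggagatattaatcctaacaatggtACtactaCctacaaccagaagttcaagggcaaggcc
day 13 n 2: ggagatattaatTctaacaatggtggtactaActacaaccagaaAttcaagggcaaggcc
day 13 p 3: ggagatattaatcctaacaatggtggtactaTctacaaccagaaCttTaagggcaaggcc
The first 2 lines below the germline differ from it at base 170 (G170A and G170C), and the last 3 at base 176 (G176C, G176A and G176T).

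Before any comparison, the libraries were set against each other, because a rearrangement (its V and J genes and CDR3 bases) should rarely recur in unrelated samples. Library p 2 of day 7 and library p 2 of day 13 shared 171 rearrangements, which is 43.0% of the 398 of the former and 60.6% of the 282 of the latter. In library p 2 of day 13, 260 of 486 sequences had a rearrangement that was also seen at day 7, and 247 were identical over the whole aligned sequence to one of day 7. Sharing was also high for library n 1 of day 7 (263 of 632 sequences also seen at day 13), library p 2 of day 7 (418 of 670) and library p 4 of day 7 (347 of 960). Of the 679 heavily mutated sequences, 61 (8.98%) had a rearrangement seen at the other day, against 19.5% of those with 1 to 4 mismatches and 24.9% of those with 0. Among the day 7 members of the class, 37 of 171 were of this kind, among those of day 13, 24 of 508. Within a day, n and p libraries with the same number shared 39 to 50 rearrangements at day 7 and 5 to 21 at day 13, against 0 to 5 (day 7) and 1 to 19 (day 13) for libraries with different numbers. The cause of the sharing was not tested, and values without the sequences shared between days are given beside several of the comparisons.

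**Figure D2:**
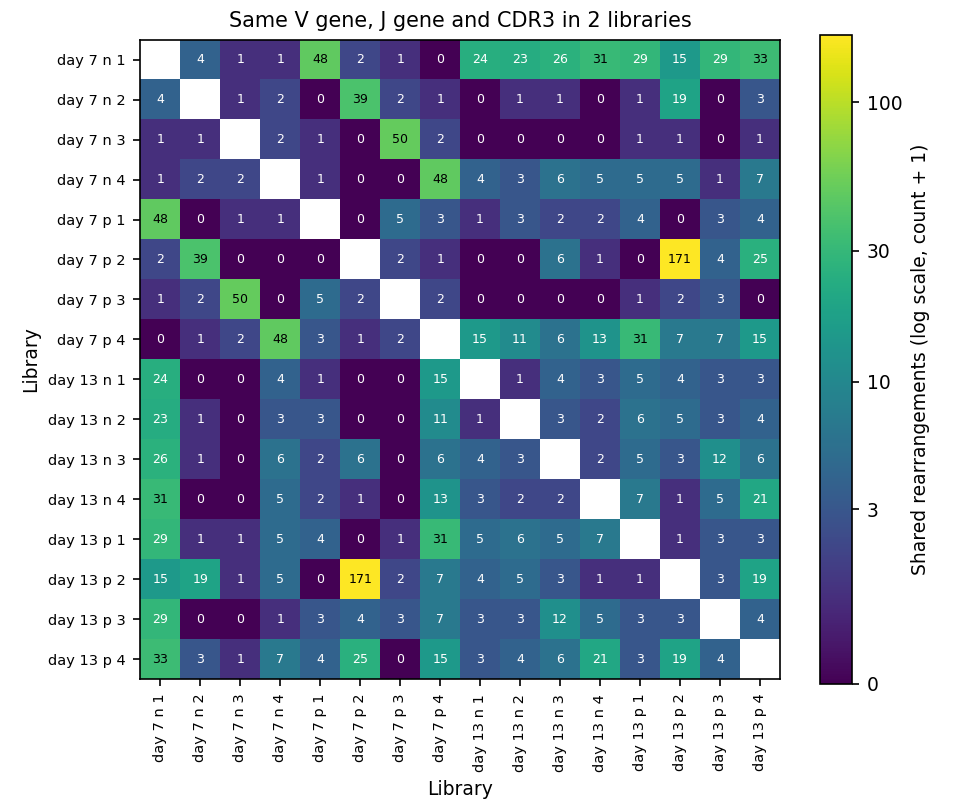
Each cell gives the number of rearrangements (V gene, J gene and CDR3 bases) found in both libraries, coloured on a log scale. The cell of libraries p 2 of day 7 and day 13 holds 171, and the column of library n 1 of day 7 holds 15 to 33 for every day 13 library.

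The first comparison asks whether heavily mutated sequences were a larger part of the day 13 libraries than of the day 7 libraries. They were, for both letters. At day 7, n, they made up 4.75%, 6.16%, 5.18% and 3.26% of libraries 1 to 4, and at day 13, n, 24.8%, 12.3%, 22.1% and 18.3%. Every day 13 library of n lay above every day 7 library of n. The mean rose from 4.83% ± 1.21 (SD, n = 4) to 19.4% ± 5.44 (SD, n = 4), a difference of 14.6 percentage points (exact two-sided permutation test, p = 0.0286, the smallest that 4 against 4 allows; Benjamini-Hochberg adjusted over the 4 comparisons of shares, 0.0381). For p the day 7 libraries held 2.90%, 2.24%, 1.30% and 1.04%, and the day 13 libraries 20.3%, 4.73%, 18.9% and 22.3%. Again the groups did not overlap, although library p 2 of day 13 was far below the rest of its group. The mean rose from 1.87% ± 0.856 (SD, n = 4) to 16.6% ± 8.00 (SD, n = 4), by 14.7 points (exact permutation p = 0.0286, adjusted 0.0381). Without sequences shared between days, library p 2 of day 13 rose to 8.85%, and the differences were 16.1 points for n and 19.1 for p, with the same p-values. With any 1 library of day 7 left out, the days still did not overlap, but the adjusted p of that letter's comparison was 0.0762 (exact permutation test). The change from day 7 to day 13 did not differ detectably between n and p (difference 0.14 points, exact permutation of the letters within days, p = 0.978).

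At day 7 the share was lower in p than in n (difference -2.97 points), and the 4 libraries of p (1.04% to 2.90%) lay below the 4 of n (3.26% to 6.16%), with p = 0.0286 and an adjusted p of 0.0381 by the exact permutation test. With n and p libraries of the same number taken as pairs, the difference was negative in each of the 4 pairs, but an exact sign-flip test over 4 pairs cannot go below its p of 0.13 (adjusted 0.25). With any 1 of the 8 libraries left out the adjusted p of the unpaired test was 0.0571 or 0.0762. At day 13 no difference between p and n was detectable (-2.83 points, exact permutation p = 0.629), without sequences shared between days it was -0.17 points, and without library p 2 it became 1.12 points in the other direction. Sequences with 0 mismatches made up 37.0% ± 2.92 of the day 7 n libraries, 55.4% ± 4.74 of day 7 p, 39.9% ± 11.2 of day 13 n and 39.1% ± 13.9 of day 13 p (SD, n = 4 each). Because the table gives no number of reads or molecules for a sequence, these are shares of listed sequences, with 285 to 1000 per library.

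**Figure D3:**
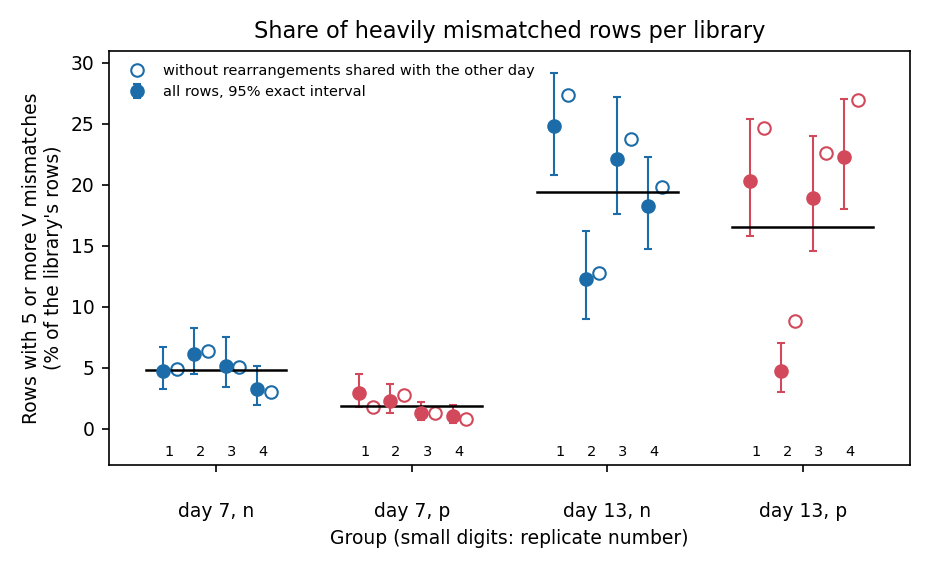
Percentage of each library's sequences with 5 or more V mismatches, by group. Filled points are all sequences with exact (Clopper-Pearson) 95% binomial intervals, open points leave out rearrangements also found at the other day, bars are the means of the filled points, and small digits are replicate numbers; every day 13 library lies above every day 7 library of its letter, library p 2 of day 13 lowest of its day at 4.73%.

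The constant region was read from the bases after J. In the sequences of the 2 most frequent kinds these bases begin as follows, and the kinds were named IgM and IgG1 from textbook knowledge of these exons.
IgM: agagtcagtccttcc
IgG1: ccaaaacgacacccc
Of the 674 heavily mutated sequences with a match, 318 were IgM (47.2%), 238 IgG1 (35.3%), 83 IgG2c (12.3%), 24 IgG3, 6 IgA, 3 IgD and 2 IgE. IgG2c, a switched class of C57BL/6 mice, made up 15.9% of heavily mutated day 13 sequences (80 of 503), 7.08% of those with 1 to 4 mismatches (86 of 1215) and 1.18% of those with 0 (14 of 1182). These are shares over all libraries, and library n 1 alone gave 40 of the 80. IgG1 stood at 37.4%, 36.9% and 10.4% in the same order. IgD, which is counted as not switched, stood at 0.60%, 0.99% and 9.22% (109 of 1182). At day 7 IgD was 0.74% of the sequences with 0 mismatches, so the unmutated class differed in make-up between the days.

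Sequences of class-switched isotypes were more frequent among heavily mutated sequences than among unmutated ones at day 13, in all 8 libraries. In n libraries 1 to 4 the switched share was 57.9%, 50.0%, 51.5% and 60.5% with 5 or more mismatches, and 11.0%, 4.26%, 6.98% and 6.10% with 0. For p libraries 1 to 4 it was 62.1%, 56.5%, 57.7% and 59.7%, against 16.3%, 15.1%, 37.0% and 19.6%. The highest share with 0 mismatches, in library p 3, was still below the lowest with 5 or more. The mean within-library difference was 42.4 points (57.0% against 14.5%; exact two-sided sign-flip permutation test over 8 libraries, p = 0.0078, the smallest it allows; adjusted over 5 measures, 0.026), and 47.6 points without sequences shared between days. Against sequences with 1 to 4 mismatches (mean 45.4%) the difference was 11.6 points, in the same direction in 7 of 8 libraries, and did not pass (exact sign-flip p = 0.039, adjusted over 9 measures 0.258). Its mean was 19.4 points in n and 3.74 points in p libraries, a difference that did not pass either (exact permutation p = 0.0857, adjusted over 10 such contrasts 0.286). At day 7 the corresponding mean shares were 32.5%, 35.4% and 31.2% for 5 or more, 1 to 4 and 0 mismatches, with 10 to 41 heavily mutated sequences a library. Whether the 2 days differ in this respect was not tested.

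J segments, which the rule did not use, also held more mismatches. Over the J bases from the conserved tryptophan codon on, the 8 day 13 libraries held 0.306 mismatches per 100 bases in heavily mutated sequences and 0.0661 in those with 0 V mismatches, higher in 7 of 8 libraries (difference 0.24, exact sign-flip p = 0.0156, adjusted over 5 measures 0.026). The exception was library p 1, with 1 mismatch in 1970 J bases of its heavily mutated sequences. With 1 to 4 V mismatches the J value was 0.168, and the difference of 0.138 did not pass (exact sign-flip p = 0.0859, adjusted 0.258). The J bases held 1 to 14 mismatches a library in the heavily mutated class, so single libraries are imprecise. In the first bases of the constant region 2 of 674 matched heavily mutated sequences departed from the 15 bases of their isotype, 2 of 3952 with 1 to 4 mismatches, and 4 of 3875 with 0. Since at most 1 mismatch was allowed in matching, these counts cannot show more divergent tails. No kind was named IgG2b, and sequences of a class within 1 base of a named kind would be counted with it.

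A CDR3 whose length is not a multiple of 3 puts J out of frame. Among the 671 heavily mutated sequences with a CDR3, 56 were of this kind. At day 13 the in-frame share was 91.6%, 85.7%, 91.0% and 87.8% in n libraries 1 to 4 and 96.6%, 91.3%, 90.4% and 85.7% in p libraries. The mean was 90.02% against 97.5% in sequences with 0 mismatches, lower in 7 of 8 libraries (difference -7.48 points, exact sign-flip p = 0.0156, adjusted over 5 measures 0.026). Against 92.7% in sequences with 1 to 4 mismatches the difference was -2.67 points and did not pass (exact sign-flip p = 0.227, adjusted 0.408). At day 7 the mean was 96.2% for 5 or more mismatches and 97.6% for 0. All 8520 sequences are listed in the deposited table as free of stop codons, those out of frame included. For the contrasts with 0 mismatches in switched share, J mismatches and in-frame share, leaving out 1 library gave adjusted p-values up to 0.0521 (exact sign-flip test), because 7 libraries allow fewer sign-flips.

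**Figure D4:**
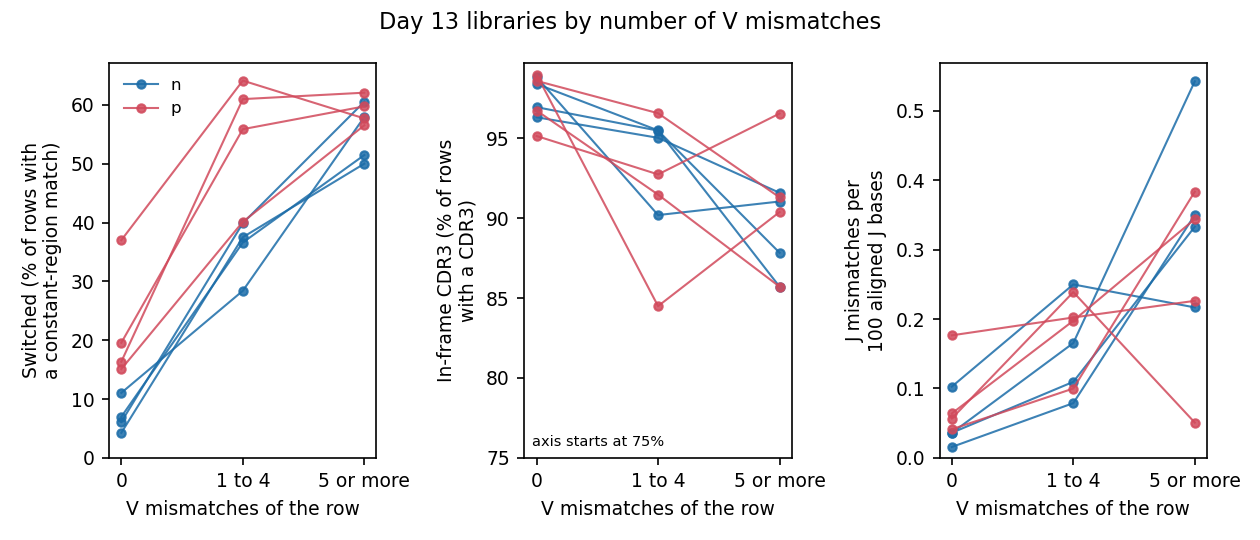
Values of the 8 day 13 libraries (blue, n; red, p; a line joins a library) in sequences with 0, 1 to 4, and 5 or more V mismatches: class-switched share, in-frame CDR3 share (axis from 75%) and J mismatches per 100 bases. The switched share rises from 4.26% to 37.0% at 0 mismatches to 50.0% to 62.1% at 5 or more.

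The kinds and places of the mismatches did not differ detectably between heavily and lightly mutated sequences. Replacement changes, those that alter the encoded amino acid, were 73.3% of mismatches with 5 or more and 73.6% with 1 to 4 (means of 8 day 13 libraries, difference -0.38 points, exact sign-flip p = 0.852). CDR1 and CDR2, which make up 16.7% of the compared V bases, held 30.6% and 30.7% of the mismatches (exact sign-flip p = 0.992). Per 100 bases, the heavily mutated sequences of day 13 libraries carried 4.24 ± 0.257 mismatches in the CDRs and 1.94 ± 0.143 in the frameworks (SD, n = 8), and those with 1 to 4 carried 1.48 ± 0.212 and 0.667 ± 0.0551. The rule fixes the size of these rates, but not their ratio, which was 2.20 ± 0.189 and 2.24 ± 0.377. Within the CDRs 84.6% ± 4.15 of the changes were replacements in the heavily mutated and 84.1% ± 3.74 in the lightly mutated sequences, and within the frameworks 68.3% ± 4.09 and 69.0% ± 3.06. Transitions made up 55.1% and 57.8% (difference -2.66 points, exact sign-flip p = 0.18).

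AID acts most readily at C in AAC, AGC, TAC and TGC, or at G in the reverse complements GTT, GCT, GTA and GCA. Such bases were 26.9% of C and G bases of the aligned germlines, and took 69.6% of mismatches at C or G in heavily mutated and 72.7% in lightly mutated day 13 sequences. The difference of -3.15 points, negative in 6 of 8 libraries, did not pass (exact sign-flip p = 0.0625, adjusted 0.258). Without sequences shared between days it was -5.57 points, which did not pass the adjusted threshold either (exact sign-flip p = 0.0156, adjusted 0.141). Over both days, the change from G to A was the most frequent (1041 of 4491, 23.2%), followed by A to G (625) and C to T (617). Mismatches at A or T, which arise in repair of the deaminated site, were 42.5% ± 3.03 of the total in heavily mutated and 39.4% ± 2.82 in lightly mutated day 13 sequences (SD, n = 8), a pair of values that was not tested.

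Most substitutions of the heavily mutated sequences were seen in only 1 clone. A clone is here the set of sequences of 1 library that share a rearrangement, so a rearrangement found in several libraries counts as several clones. Of 3085 different substitutions in the heavily mutated sequences, 2497 occurred in 1 clone. The most widespread was G170A of IGHV1-26, a replacement in CDR2, in 14 clones of 7 libraries (14 of 49 heavily mutated IGHV1-26 sequences, and 5 of 160 with 1 to 4 mismatches). Base 176 of IGHV1-26, a replacement position just outside CDR2, held G176A in 11 clones of 5 libraries and G176C in 9 of 6. G30A of the same gene, which is silent, was seen in 8 clones. Of those seen in 7 clones, G197C of IGHV1-64, G167A of IGHV1-75 and G268A of IGHV6-3 were replacements, whereas G114A of IGHV1-76 and G9A of IGHV6-3 were silent. G167A of IGHV1-75 was carried by 7 of 23 heavily mutated sequences of that gene and by 0 of 64 with 1 to 4 mismatches. Of the 10 most widespread substitutions (the tenth, C231T of IGHV1-26 with 6 clones, tied with others), all lay at AID hotspots, 6 were replacements and 2 lay in CDR1 or CDR2. Sequences with more mismatches have more chances to carry any given one, so these counts were not tested.

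The heavily mutated sequences used 81 of the 102 V genes in the table, and the 10 most used gave 328 of the 679 (48.3%). IGHV6-3 (chr12:114391712-114392010) gave 51, in 25 clones, and IGHV1-26 gave 49, in 44 clones. They were followed by IGHV1-64 (chr12:115507587-115507977) with 45, IGHV1-76 with 34, IGHV1-81 with 31, IGHV5-4 with 28, IGHV8-12 with 26, IGHV1-75 with 23, IGHV1-74 with 21 and IGHV5-17 with 20. Among day 13 sequences of these 10 genes, the class made up between 13.6% (IGHV8-12, of 103) and 50% (IGHV1-75, of 44) of the gene's sequences, with IGHV5-4 at 33.3% (of 57), IGHV1-26 at 33.1% (of 127) and IGHV1-74 at 32.7% (of 55). The IGHV1 family as a whole gave 59.9% of heavily mutated sequences, 48.5% of those with 1 to 4 mismatches and 38.2% of those with 0.

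At day 13, 30 V genes had enough sequences to test their share of heavily mutated against lightly mutated sequences, with library as a block (limma, Benjamini-Hochberg), and 2 passed (6.67%), 1 higher (3.33%) and 1 lower (3.33%) among the heavily mutated. IGHV1-75 (chr12:115833950-115834243) took a larger share of the heavily mutated sequences, with 22 against 13 sequences. Its heavily mutated sequences numbered 1, 0, 1 and 4 in n libraries 1 to 4 and 5, 0, 4 and 7 in p libraries, against 0, 0, 1 and 5, and 0, 6, 1 and 0 lightly mutated ones. Libraries p 1, p 3 and p 4 held most of the difference and library p 2 went against it. The log2 fold of its share was 2.17 ± 0.56 (SE, limma adjusted p = 0.0201), and 5 of the 22 were 1 clone of library p 1. IGHV5-6 (chr12:113625508-113625801) took a smaller share, with 7 against 72 sequences and a log2 fold of -1.58 ± 0.44 (SE, limma adjusted p = 0.0221). It held 0 to 2 heavily mutated and 3 to 15 lightly mutated sequences in each of the 8 libraries, and fewer heavily mutated ones in every one. Neither call held under all settings. Without library p 3 or without library p 4 of day 13 no V gene passed (smallest limma adjusted p 0.0652 and 0.053), IGHV5-6 did not pass without library n 4 (limma adjusted p = 0.0912), and with a prior count scaled to the size of the class only IGHV5-6 passed. The log2 fold of IGHV5-6 was -0.54 with a prior count of 2 (limma adjusted p = 0.121) and -0.79 at a threshold of 6 mismatches (limma adjusted p = 0.436), neither of which passed. Without sequences shared between days both genes passed, and so did IGHV5-4, for 3 calls in all. IGHV1-26 (log2 fold 0.66 ± 0.50), IGHV6-3 (0.35 ± 0.47) and IGHV1-64 (0.46 ± 0.45), the 3 most used genes, did not pass. V genes of a family are alike, and a heavily mutated sequence is the more easily aligned to a neighbour of its true gene, so that calls for single genes are uncertain.

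**Figure D5:**
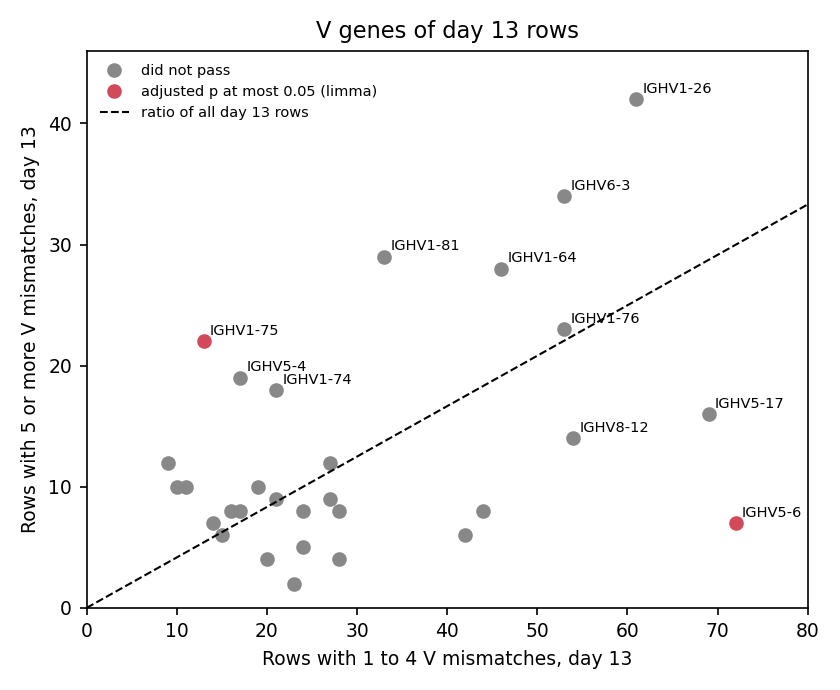
Number of day 13 sequences with 1 to 4 (horizontal) and with 5 or more (vertical) V mismatches for the 30 tested V genes, with the ratio of all day 13 sequences as a dashed line. IGHV1-75 (13 and 22) and IGHV5-6 (72 and 7), in red, passed the limma test at an adjusted p of at most 0.05.

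As for J genes, IGHJ3 was used by 33.6% of heavily mutated day 13 sequences (169 of 503), 24.7% of those with 1 to 4 mismatches and 25.5% of those with 0, and IGHJ2 by 30.2%, 31.2% and 34.7%. At day 7 IGHJ3 stood at 22.8%, 23.6% and 21.5%. J usage was not tested. In-frame CDR3s of the 8 day 13 libraries were 11.6 codons long on average in heavily mutated sequences, 11.8 with 1 to 4 mismatches and 12.03 with 0, and neither difference passed (exact sign-flip p = 0.539 and 0.516).

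Most heavily mutated sequences stood alone. The 671 with a CDR3 fell into 568 clones, of which 508 held 1 such sequence, and 67 of the 568 also held sequences with fewer mismatches. All 679 together held 595 different aligned V sequences. Whether repeated ones are copies from the same cell or molecule was not tested, and each is counted as a sequence here. At day 13 the share in clones of 2 or more sequences was 31.1% with 5 or more mismatches and 30.99% with 1 to 4 (exact sign-flip p = 0.984), with a spread from 11.9% (library n 2) to 51.9% (library p 3) in the former. With 0 mismatches it was 47.1%, which did not differ past the threshold (difference -16.1 points, exact sign-flip p = 0.0938, adjusted over 5 measures 0.117). Without sequences shared between days that difference was -25.6 points and passed (exact sign-flip p = 0.0234, adjusted 0.0293). Clones were built from identical CDR3 bases, so that a clone with mutations in its CDR3 is counted as several.

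The clone with the most heavily mutated sequences came from library p 1 of day 7, used IGHV6-3 and IGHJ1, and held 29 sequences with 0 to 7 V mismatches, of which 11 had 0, 10 had 1 to 4 and 8 had 5 or more. Of the 29, 16 were IgM and 13 IgG1. Its most frequent heavily mutated V sequence is set against the germline, with mismatches in capitals, as an example from a clone that also held unmutated sequences. The 8 held 3 different V sequences, and no substitution was common to all 8.
IGHV6-3 germline: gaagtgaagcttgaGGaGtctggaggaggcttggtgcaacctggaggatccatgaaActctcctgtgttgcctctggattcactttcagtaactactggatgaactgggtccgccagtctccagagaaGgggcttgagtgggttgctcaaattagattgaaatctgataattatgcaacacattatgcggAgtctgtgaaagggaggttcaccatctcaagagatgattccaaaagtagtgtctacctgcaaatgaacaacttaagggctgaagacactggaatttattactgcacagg
day 7 p 1: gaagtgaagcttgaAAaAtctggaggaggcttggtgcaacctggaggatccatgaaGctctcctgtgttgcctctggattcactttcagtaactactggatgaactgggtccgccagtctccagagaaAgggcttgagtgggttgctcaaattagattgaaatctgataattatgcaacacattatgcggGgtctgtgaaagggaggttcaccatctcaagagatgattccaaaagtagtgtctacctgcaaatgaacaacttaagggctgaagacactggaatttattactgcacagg
The 6 mismatches were G15A, G16A, G18A, A57G, G129A and A191G. The same rearrangement was also found in library n 1 of day 7 and in libraries n 3 and p 4 of day 13.

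The next clones came from library n 1 of day 13, used IGHV6-3 and IGHJ2 and consisted only of IgG2c sequences. Their CDR3s, shown because they differ only in the last base, in capitals, were as follows.
clone of 9 sequences: acagaactgggccactttgactaC
clone of 7 sequences: acagaactgggccactttgactaT
In the former, 7 of 9 sequences had 5 to 8 mismatches, and C10G was carried by all 7. In the latter all 7 had 5 to 8 mismatches and shared G109A, G175A and C258T. None of these substitutions was shared by all heavily mutated sequences of the former. Whether both clones descend from 1 cell was not tested.

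In several of the other large clones, the heavily mutated sequences shared most or all of their substitutions. A clone of library p 3 of day 13 (IGHV5-4, IGHJ2) held 6 IgM sequences that shared G18T, A69T, A82T, G167C and A260G. A clone of library n 1 of day 13 (IGHV1-74, IGHJ4) held 5 identical V segments with 6 mismatches, all IgM, and a clone of library p 1 of day 13 (IGHV1-75, IGHJ2) held 5 identical V segments with 6 mismatches, all IgG1. Library p 1 also held an IgM clone of 5 with IGHV7-3. In library p 3 of day 13 a clone of IGHV1-74 with IGHJ3 held 4 IgM and 3 IgD sequences, with 4 of the 7 heavily mutated. A day 7 clone of library p 4 (IGHV1-50, IGHJ1) held 4 identical V segments with 5 mismatches, and its rearrangement was also seen in libraries n 3 and p 4 of day 13. The last of the 10 clones with the most members, IGHV3-6 with IGHJ2 in library n 1 of day 13, held 3 sequences of 5 to 9 mismatches that had none in common.

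Of 543 member rearrangements, 22 contained heavily mutated sequences in 2 or more libraries. Against the single-cell immunoglobulin libraries of the same series, 1 member rearrangement was also present in the OVA library (1171 heavy-chain rearrangements, 4 of them in the bulk table at all) and 0 in the libraries of mice immunised with NP (1271 and 1054).

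The most mutated sequences were of different kinds. The 3 sequences with 18 mismatches, 1 each in libraries n 1, n 4 and p 4 of day 13, were aligned to IGHV1-87 with 27 inserted bases and carried the same 18 mismatches beside different CDR3s. They were the only IGHV1-87 sequences, all IgM, and 2 of them were in frame. They are counted in the class by its rule, but whether these 18 differences are mutations or belong to the germline of these mice was not tested. The other 2 sequences with 15 mismatches among the 5 in-frame sequences with the most were an IgG1 sequence of IGHV5-6 in library p 4 of day 13, with 11 replacements, and an IgG3 sequence of IGHV1-64 in library p 1 of day 7, with 10 replacements and 4 mismatches in CDR1 or CDR2. Each was the sole sequence of its clone. Joins of 2 germline V genes of a family at a single point, as PCR can make them, were compared with 673 of the 679 sequences. The best join left at least 3 mismatches in every one, and at most 4 in 30 of them.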

How the data were processed

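Bulk heavy-chain sequences of 16 libraries were taken from the deposited table, which gives 1 row per sequence with its V and J alignments and V identity in percent, computed by the authors with tools not given in the sources used here (build mm10 per the submitters' processing notes). It gives no reads per sequence, so intervals cover counting error only. V and J mismatches, CDR3 (between framework 3 and the J tryptophan), isotype (15 bases after J, at most 1 mismatch) and clones were derived here with Python 3.11.15 (numpy 2.4.6, pandas 2.3.3). The members, lists and measures were chosen with earlier results of these data known. J mismatches and all comparisons with 0 mismatches were added after the data were examined. Shares were compared by exact permutation, and classes within the 8 day 13 libraries by exact sign-flips. V genes with at least 20 sequences were tested with limma 3.58.1 on log2 shares with a prior count of 0.5. In simulated data this recovered 95.0% of V genes changed 4-fold and called 1.28% of unchanged ones. The simulated sequences were drawn singly from the pooled V shares, without clones or differences between libraries. The changed genes were picked among the more frequent V genes. These rates therefore do not give the error or power of the test on the real sequences. A first simulation with changes in 1 direction called more unchanged genes, so a prior scaled to the class total was tried and left as an alternative after the simulations were balanced; calls under both were known by then. V genes, clones and substitutions named are the 10 with most members or clones, with any V gene past the test. Same-numbered n and p libraries had positive correlations of V usage at day 7 (0.150, 0.127, 0.407 and 0.256, over 50 V genes). Pairs with different numbers ran from -0.316 to 0.160, so only numbers 3 and 4 lay above all of them. At day 13 the correlations of same-numbered libraries were mixed (0.336, -0.0306, -0.149 and -0.0425). Same-numbered day 13 libraries shared a median of 8.5 rearrangements, against 3 for libraries with different numbers. Results with the pairing are therefore given for both days. Coordinates come from RefSeq (GRCm38.p6), which held 100 of 102 V genes. The single-cell contig tables (deposited UMI and read counts, Cell Ranger per the submitters' processing notes) served only for matching rearrangements, and the single-cell gene table was not used here.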

Additional observations from a re-analysis of the deposited data

Results flagged for a closer look

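In the 4 libraries of day 7, p, the switched share of heavily mutated sequences was 26.3% to 30.8% in libraries 1 to 3 and 0 in library 4, a gap to the others of 0.855 of the group's range. It rests on 0 of 10 sequences, which allows a share of up to 30%, a limit within the range of the others. In the same group library p 1 held 0.155 J mismatches per 100 bases, and the other libraries 0, which is 1 mismatch in 645 J bases. Of 40 groups of values checked in this way, chance alone flags about 1 in 20.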

How the results depend on the processing

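Of 384 values of 21 results under other settings, 299 kept their direction and their side of the threshold or, for the count of V gene calls, stayed within 1.5 times of it. No setting reversed a result past its threshold. The share of heavily mutated sequences at day 13 against day 7 stayed positive throughout, and its adjusted p left the threshold with differences of medians (15.3 points for n and 17.8 for p, adjusted p = 0.0762 by exact permutation) and with only sequences aligned from germline base 1 (14.7 and 14.6, adjusted 0.0571; p against n at day 7, -2.54, adjusted 0.0762, which did not pass either). Leaving out each library gave 12.7 to 16.9 points for n, 12.8 to 18.6 for p, -3.49 to -2.53 for p against n at day 7 (adjusted p 0.0571 to 0.0762 in every case) and -5.19 to 1.12 for p against n at day 13. With the replicate block the day 7 difference of -2.97 did not pass, and neither did the day 13 contrasts with 0 mismatches (42.4, -7.48 and 0.24 for switched share, in-frame share and J mismatches, exact sign-flip p = 0.13), where 4 pairs allow no smaller p. Same-numbered day 13 libraries had V usage correlations of 0.336, -0.0306, -0.149 and -0.0425, and whether they are true pairs is not known. Leaving out a library gave 40.7 to 45.6, -8.75 to -6.74 and 0.202 to 0.275 for these 3, with adjusted p up to 0.0521, since 7 libraries allow fewer sign-flips. The clone share against 0 mismatches passed without sequences shared between days (-25.6). Differences near 0 changed sign without passing. For the CDR share they were 1.29 (threshold of 6), 0.19 (each clone once), 0.28 (without gapped sequences), 0.24 (without sequences shared between days) and -0.94 to 0.65 (without 1 library). For the replacement share they were 0.29 (each clone once) and -1.71 to 0.75. For CDR3 length the range without 1 library was -0.34 to 0.0092. For the clone share against 1 to 4 mismatches they were -1.20 (threshold of 6), -0.47 (each clone once), -1.82 (first 20 V bases not counted), -0.67 (from germline base 1), -4.72 (without sequences shared between days) and -3.01 to 3.92. V gene calls numbered 2, and 1 with a prior count scaled to the class, 17 with a prior count of 2, 30 without the filter (29 of them higher), 4 at a threshold of 6, 3 without sequences shared between days and 0 to 3 without 1 library. The prior count alone thus moved them from 1 to 17. The in-frame share has no value when only in-frame sequences are kept. J and constant-region counts are small, and no reads per sequence are known.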
